A study of Mus musculus with 9 samples.

Results

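Iron handling was described through 9 genes of the 53465 in the table, namely the ferritin subunits Fth1 and Ftl1, the ferritin cargo receptor Ncoa4, the iron exporter ferroportin (Slc40a1), the transferrin receptor (Tfrc), the ferrireductase Steap3, the divalent metal transporters Slc11a1 and Slc11a2, and the iron sensor Ireb2. They were chosen by name, as genes of iron storage, export and uptake, with earlier results of these data known. The deposited symbols are shortened at hyphens, so that pseudogenes can carry the symbol of their parent. Only Ftl1 was affected, and its row with the most reads (1329900 over all libraries, against 9534 and 257 for the pseudogenes Ftl1-ps1 and Ftl1-ps2) was kept.

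The libraries came from bone marrow derived macrophages (BMDMs) of wild-type male C57B6 mice (C57bl6/J in the study's methods), grown with the macrophage growth factor CSF1 at 50 ng/ml. Of the 9 libraries, 3 were untreated (UNX), 3 came from cells given medium conditioned by pulmonary artery adventitial fibroblasts of control calves (CO-CM), and 3 from cells given medium of fibroblasts from calves with hypoxia-induced pulmonary hypertension (PH-CM). Each medium was pooled from several bovine fibroblast populations, so replicates repeat the mouse macrophage culture and not the calf, and the labels disagree on the exposure, given as 16 h by one protocol and as 24 h by the next. The study's methods name a time between these for RNA. UNX cells received no conditioned medium at all, so only PH-CM against CO-CM separates the disease of the fibroblast donor from exposure to a fibroblast medium.

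Macrophages take up iron through transferrin and its receptor, or from engulfed red cells, keep it in the cytosol inside ferritin shells built of heavy (Fth1) and light (Ftl1) chains, and return it to plasma through ferroportin, the only known cellular iron exporter. Iron regulatory proteins, of which Ireb2 is one, read cytosolic iron and bind hairpins in mRNAs called iron-responsive elements. Bound to a hairpin in the 5′ UTR they block translation, and bound to hairpins in the 3′ UTR of Tfrc they protect the mRNA from decay. RNA-Seq counts therefore carry the regulation of Tfrc through these hairpins, but not the translational control of ferritin and ferroportin.

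The hairpins found in these genes are shown because, as described above, those of a 5′ UTR act on translation and those of Tfrc on mRNA decay. Annotated UTRs of protein-coding transcripts (GENCODE M21, build GRCm38) were searched on the sense strand for the loop CAGTGN. It had to be flanked by 5 bases on each side that pair with each other (A with T, G with C, G with T). A C directly before these bases was required, and whether it was unpaired was not checked. The 5′ UTRs of Fth1, Ftl1 and Slc40a1 each held 1 match, the 3′ UTR of Tfrc held 4, and the other 5 genes held none, which says only that these letters are not in their annotated UTRs. Such a match was found in the 5′ UTR of 30 of 20062 genes (0.15%) and in the 3′ UTR of 128 of 20874 genes (0.613%), and Tfrc was the 1 gene of all those searched with 3 or more in a 3′ UTR. Each site is given 5′ to 3′ as 30 bases of the transcript strand in DNA letters, with the loop in capitals.
Fth1, 5′ UTR, exon 1, chr19:9982732-9982761, plus strand: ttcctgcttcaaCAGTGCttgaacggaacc
Ftl1, 5′ UTR, exon 1, chr7:45459778-45459807, minus strand: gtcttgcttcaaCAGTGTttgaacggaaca
Slc40a1, 5′ UTR, exon 1, chr1:45925464-45925493, minus strand: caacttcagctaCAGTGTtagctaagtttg
Tfrc, 3′ UTR, exon 19, chr16:32631219-32631248, plus strand: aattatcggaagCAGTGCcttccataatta
Tfrc, 3′ UTR, exon 19, chr16:32631598-32631627, plus strand: cattatcgggagCAGTGTcttccataatgc
Tfrc, 3′ UTR, exon 19, chr16:32631663-32631692, plus strand: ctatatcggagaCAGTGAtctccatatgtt
Tfrc, 3′ UTR, exon 19, chr16:32631710-32631739, plus strand: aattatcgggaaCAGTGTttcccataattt

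Libraries held between 62017933 and 84314201 counted reads. All 8 macrophage markers of a fixed list passed the filter on low counts, with Lyz2 the highest, and their summed level was 11818 to 12613 CPM (reads of a gene scaled to a common library size, with TMM factors) in UNX, 19014 to 19970 in CO-CM and 21462 to 23274 in PH-CM. Erythroid markers, which could bring iron genes of red cell precursors, were near 0, with none of 8 tested, a summed level of at most 0.449 CPM, and Hba-a2 and Hbb-bs at 0 in all 9 libraries. Of 8 fibroblast markers 6 were tested, with Col1a1 the highest, and their sum was 197 to 249 CPM in UNX, 267 to 318 in CO-CM and 249 to 335 in PH-CM. The 15 cell cycle genes of a fixed list were all called lower under both media, with a summed level of 3460 to 3736 CPM in UNX, 662 to 829 in CO-CM and 407 to 447 in PH-CM. Neutrophil, lymphocyte and dendritic cell markers summed to at most 4.51, 17.1 and 0.885 CPM in any library, and Ly6g was at 0. Of 10 targets of the stress regulator NRF2 outside iron handling, 2 were called higher and 3 lower under PH-CM, and 2 higher and 4 lower under CO-CM. In PH-CM against CO-CM 3 of them were called higher and none lower. Over all genes tested, 63.0%, 57.0% and 27.1% were called in these comparisons. Whether macrophage markers, fibroblast markers or cell division had a part in the differences of iron genes was not tested, and in bulk RNA fewer cells of a type and less RNA per cell cannot be told apart.

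All 9 iron genes passed the filter (CPM above 1 in at least 3 libraries, 11950 genes tested). Calls required a fold change of 1.2 or more and an FDR of 0.05 or less in edgeR's quasi-likelihood test, adjusted over all genes tested. Against UNX, 3 of the 9 were higher in PH-CM (Fth1, Ncoa4 and Slc11a1) and none was lower, in a comparison where 63.0% of all genes were called, 31.3% higher and 31.7% lower. In CO-CM 6 were higher than in UNX (Fth1, Ftl1, Ncoa4, Steap3, Slc11a2 and Slc11a1) and 1 was lower (Slc40a1), where 57.0% of all genes were called, 28.0% higher and 28.9% lower. Between the media, 1 gene was higher in PH-CM (Slc40a1) and 3 were lower (Ftl1, Ncoa4 and Steap3), where 27.1% of all genes were called, 12.2% higher and 15.0% lower. These counts come from the fit without the replicate number. With it as a block, Tfrc was added as higher in PH-CM, for 4 genes higher against UNX and 2 against CO-CM, and the other counts stayed the same. The median log2 fold change of the 9 genes was 0.20 for PH-CM against UNX, 0.33 for CO-CM against UNX and 0.09 for PH-CM against CO-CM, beside 0.0072, 0.00024 and -0.0064 over all genes tested. The 3 libraries of one group all lay above the 3 of the other for 6 of the 9 genes in PH-CM against UNX (77.7% of all genes tested), for 7 in CO-CM against UNX (72.0%) and for 7 in PH-CM against CO-CM (50.2%). In their share of calls without the block the 9 genes were below the background in the first comparison (3 of 9) and above it in the second (7 of 9) and the third (4 of 9), which is a description of few genes.

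**Figure D1:**
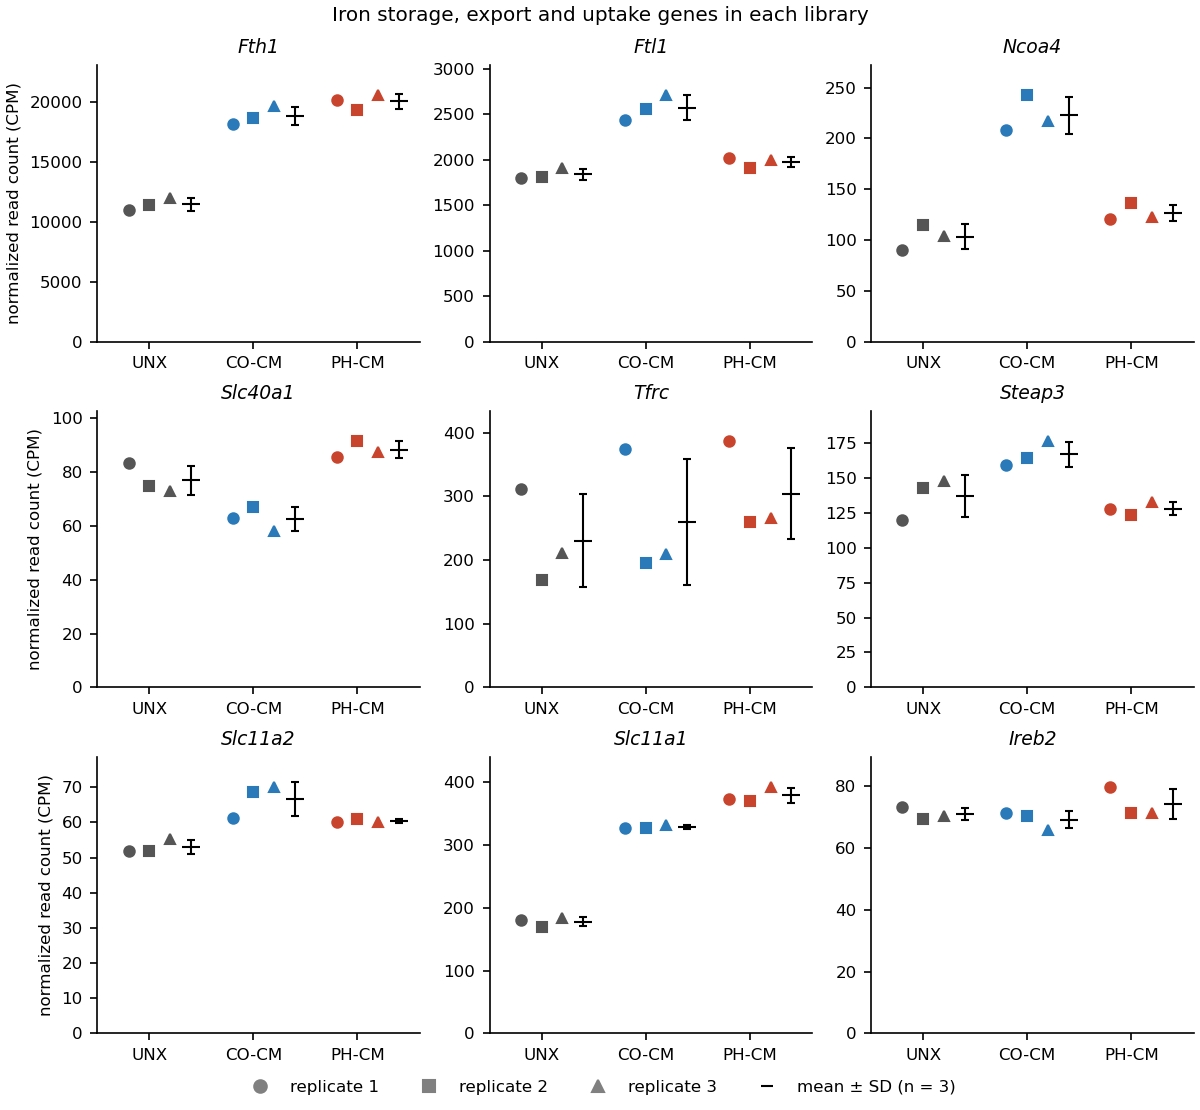
Normalized read count (CPM) of the 9 iron genes in each library, with 3 libraries per group (UNX, CO-CM, PH-CM), marker shape for the replicate number, and mean ± SD beside them. Fth1 and Slc11a1 were high under both media, Ftl1, Ncoa4 and Steap3 were high under CO-CM, Slc40a1 was low under CO-CM, and the replicate 1 libraries held the most Tfrc in every group.

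Fth1 (chr19:9980598-9985098, plus strand, GRCm38) encodes the ferritin heavy chain, which carries the ferroxidase activity that loads iron into the shell. It stood at 10979, 11419 and 12020 CPM in UNX, 18167, 18682 and 19663 CPM in CO-CM, and 20216, 19409 and 20637 CPM in PH-CM. Every treated library was above every untreated one, and the groups treated with the 2 media overlapped. Fth1 rose 1.75-fold under PH-CM (log2 fold change 0.81, SE 0.067, edgeR FDR = 1.57e-06) and 1.64-fold under CO-CM (0.72, SE 0.067, FDR = 5.38e-06). Between the media the difference was 0.09 with a 95% confidence interval of -0.06 to 0.24 and an edgeR FDR of 0.305. Fth1 had the highest RPKM (reads scaled to exon length and library size) of all genes in all 9 libraries, and it took 1.15% to 1.22% of all counted reads in UNX, 1.80% to 1.91% in CO-CM and 1.90% to 2.03% in PH-CM.

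Ftl1 (chr7:45457944-45459884, minus strand) encodes the ferritin light chain, which has no ferroxidase site and aids the formation of the iron core. Its level was 1799, 1812 and 1911 CPM in UNX, 2444, 2565 and 2715 CPM in CO-CM, and 2016, 1912 and 2002 CPM in PH-CM. The CO-CM libraries were all above the other 6, whereas the lowest PH-CM library was almost level with the highest UNX library. Ftl1 rose 1.40-fold under CO-CM (log2 0.48, SE 0.057, edgeR FDR = 2.80e-05) and was 1.30-fold lower in PH-CM than in CO-CM (-0.38, SE 0.057, FDR = 0.000487). PH-CM against UNX gave 0.10, with a confidence interval of -0.02 to 0.23 and an edgeR FDR of 0.124. Of 869 windows of 100 bases in the Ftl1 transcript, 683 (78.6%) occur exactly in a transcript of another gene, mostly Ftl1-ps1, and the counting options listed by the study name none for reads with several positions, so that by default such reads were left out and its level may be understated. For Fth1 the share was 0.573% (8 of 1395 windows). A gene on the opposite strand within Ftl1, Gm10252, held 795 reads. Since no strand option is listed, reads from where exons of the 2 genes overlap cannot be told apart. By default such reads are given to neither gene, which may also understate Ftl1.

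Both ferritin chains thus held more reads under CO-CM, and the heavy chain alone was called under PH-CM. The ratio of Fth1 to Ftl1 in RPKM was 9.44, 9.75 and 9.73 in UNX, 11.5, 11.3 and 11.2 in CO-CM, and 15.5, 15.7 and 15.9 in PH-CM, with group means of 9.64 ± 0.17, 11.3 ± 0.16 and 15.7 ± 0.22 (SD, n = 3). No library of one group fell within the range of another, and the spread inside a group was far smaller than the gaps between groups. On the log2 scale the ratio was 0.71 higher in PH-CM than in UNX, 0.23 higher in CO-CM than in UNX and 0.47 higher in PH-CM than in CO-CM. Each of these gave p = 0.1 in a two-sided exact permutation test, the smallest value that 3 against 3 libraries allow, and 0.2 after Benjamini-Hochberg adjustment over the 12 comparisons made with 4 such ratios. The absolute ratio carries the uncertainty of Ftl1 reads described above.

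**Figure D2:**
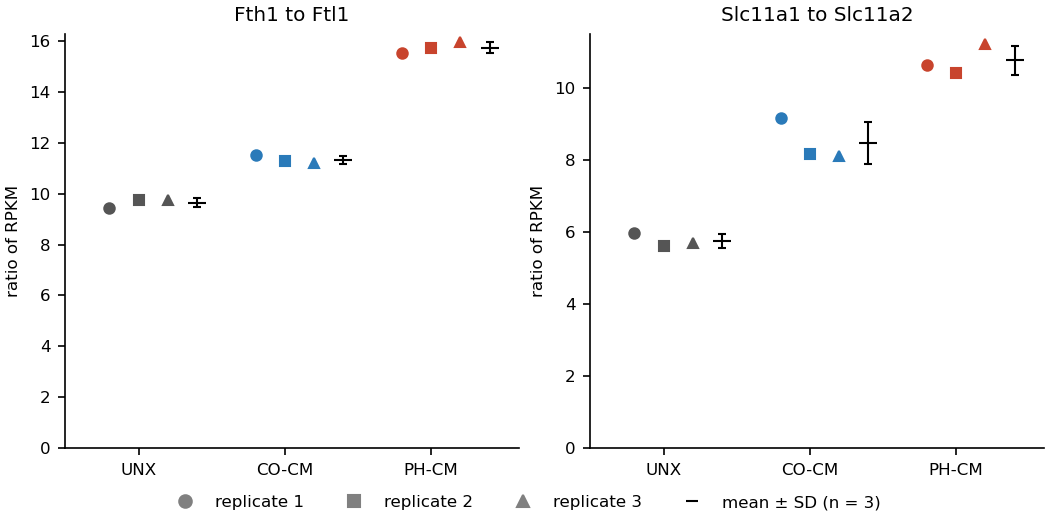
Ratio of RPKM of Fth1 to Ftl1 (left) and of Slc11a1 to Slc11a2 (right) in each of the 9 libraries, with marker shape for the replicate number and mean ± SD (n = 3) beside them. Fth1 to Ftl1 rose in steps from 9.64 in UNX to 11.3 in CO-CM and 15.7 in PH-CM, and Slc11a1 to Slc11a2 from 5.77 to 8.49 and 10.8, with no overlap between groups.

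Ncoa4 (chr14:32159865-32179855, plus strand) encodes the receptor that binds ferritin and delivers it to the lysosome for release of its iron, a route called ferritinophagy. It was found at 90.3, 115 and 104 CPM in UNX, 208, 243 and 217 CPM in CO-CM, and 121, 136 and 123 CPM in PH-CM. All CO-CM libraries lay well above the rest, and the PH-CM libraries sat just above the UNX libraries. Ncoa4 rose 2.16-fold under CO-CM (log2 1.11, SE 0.090, edgeR FDR = 1.92e-06), and its level in PH-CM was 1.76-fold lower than in CO-CM (-0.81, SE 0.090, FDR = 6.75e-05). This was the widest gap between the media among the 9 genes, with 3.60% of all genes tested having a lower log2 fold change. The rise under PH-CM was 1.23-fold (0.30, SE 0.090, edgeR FDR = 0.0113), near the fold threshold of 1.2, and it fell below that threshold to 0.20 without UNX replicate 1 and to 0.25 without PH-CM replicate 2, and with library size alone or with other filters on low counts. In the Ncoa4 transcript 39.8% of windows of 100 bases recur in the gene Gm6768, which itself held 1102 reads against 93647 of Ncoa4.

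Ferroportin, encoded by Slc40a1 (chr1:45908068-45926523, minus strand), was the 1 gene of the 9 that fell under CO-CM. Its values were 83.1, 74.6 and 72.9 CPM in UNX, 63.0, 66.8 and 57.8 CPM in CO-CM, and 85.3, 91.5 and 87.4 CPM in PH-CM. In CPM the 3 groups did not overlap, with CO-CM lowest and PH-CM highest. In RPKM UNX replicate 1 (9.64) was above PH-CM replicates 1 and 3 (9.52 and 9.53), so UNX and PH-CM overlapped. Slc40a1 was 1.23-fold lower in CO-CM than in UNX (log2 -0.30, SE 0.066, edgeR FDR = 0.00225) and 1.41-fold higher in PH-CM than in CO-CM (0.49, SE 0.066, FDR = 0.000237). The fall under CO-CM passed the fold threshold narrowly, and it was -0.25 without UNX replicate 1 and -0.24 without CO-CM replicate 3, which are both under it, as was -0.23 with upper-quartile factors. PH-CM against UNX reached an edgeR FDR of 0.0192 at a 1.15-fold higher level, below the fold threshold. That edgeR FDR was 0.0955 with library size alone, 0.0709 with no filter on low counts and 0.0553 with filterByExpr. Among the ferroxidases that work with ferroportin, Heph held 24 reads in all libraries together, and ceruloplasmin (Cp) held 748 reads and 0.710 to 1.78 CPM. Cp was not called in edgeR without the replicate block (log2 0.51 with FDR = 0.114 for CO-CM against UNX, -0.64 with FDR = 0.0938 for PH-CM against CO-CM). With the replicate number as a block Cp was called higher in CO-CM than in UNX and lower in PH-CM than in CO-CM (edgeR FDR = 0.0101 and 0.00728). Hamp, the hormone hepcidin that removes ferroportin from the membrane, held 7 reads.

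Tfrc (chr16:32608920-32632794, plus strand), which brings transferrin-bound iron into the cell, varied most between replicates. Its level was 312, 169 and 211 CPM in UNX, 374, 196 and 209 CPM in CO-CM, and 388, 260 and 266 CPM in PH-CM. Replicate 1 was the highest library of each group, at 1.64, 1.85 and 1.47 times the mean of replicates 2 and 3 in UNX, CO-CM and PH-CM, and the groups overlapped. Without regard to the replicate number Tfrc was not called in any comparison, with log2 fold changes of 0.40 (SE 0.28, edgeR FDR = 0.216) for PH-CM against UNX, 0.17 (FDR = 0.602) for CO-CM against UNX and 0.23 (FDR = 0.556) for PH-CM against CO-CM. The confidence intervals were wide, from -0.22 to 1.02 in the first case. Within a replicate number PH-CM exceeded UNX by 0.31, 0.62 and 0.33 and exceeded CO-CM by 0.05, 0.41 and 0.35 on the log2 scale, so all 3 pairs had the same sign in each. With the replicate number as a block Tfrc was called higher in PH-CM than in UNX (0.42, SE 0.068, edgeR FDR = 0.000169) and than in CO-CM (0.27, SE 0.068, FDR = 0.00736), and CO-CM against UNX stayed uncalled (0.16, FDR = 0.059). Leaving out UNX replicate 1 also gave a call for PH-CM against UNX (0.67, edgeR FDR = 0.0477), and for CO-CM against UNX the sign turned without UNX replicate 2 (-0.03) or CO-CM replicate 1 (-0.19). What sets replicate 1 apart in Tfrc was not tested.

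**Figure D3:**
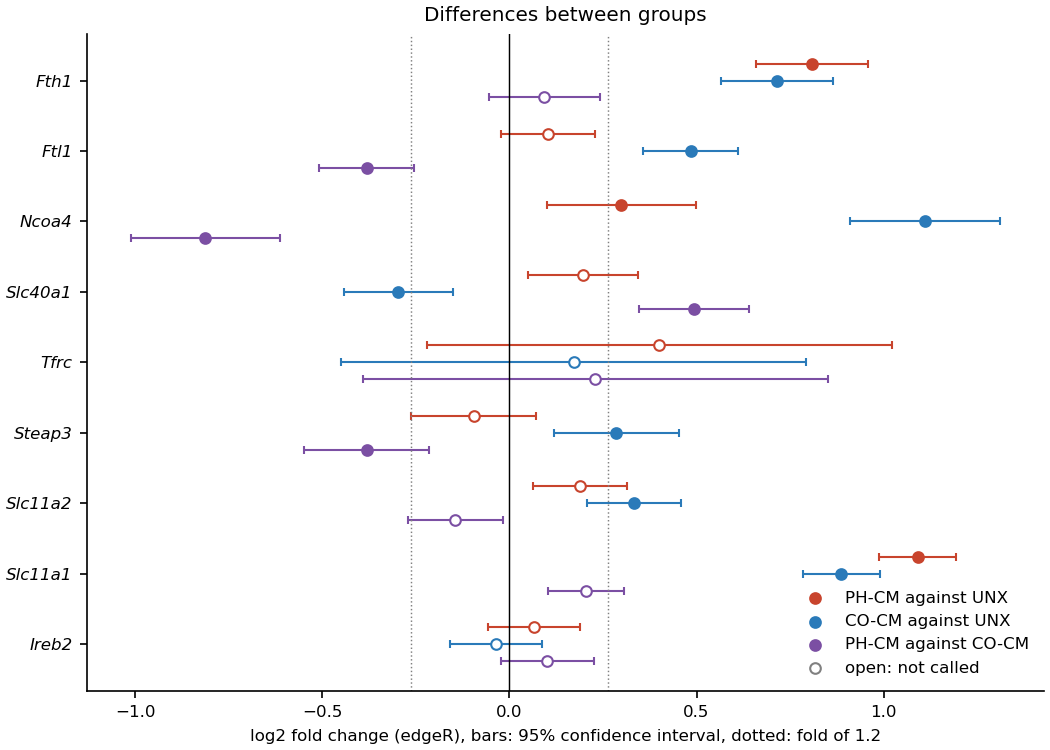
Log2 fold change of each iron gene with its 95% confidence interval in the edgeR fit without a replicate block, for PH-CM against UNX, CO-CM against UNX and PH-CM against CO-CM, with open points for genes not called and dotted lines at a fold of 1.2. The intervals of Tfrc are the widest, Ncoa4 and Slc11a1 have the largest increases, and the sign for Slc40a1 differs between the 2 media.

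Steap3 (chr1:120190757-120272705, minus strand) encodes the endosomal reductase that turns ferric into ferrous iron after transferrin uptake. It had 120, 143 and 148 CPM in UNX, 159, 164 and 176 CPM in CO-CM, and 128, 124 and 133 CPM in PH-CM. CO-CM libraries were above all others, and the PH-CM libraries lay inside the range of UNX. Steap3 was 1.22-fold higher in CO-CM than in UNX (log2 0.29, SE 0.075, edgeR FDR = 0.00623), a value that fell to 0.18 without UNX replicate 1 and to 0.24 without CO-CM replicate 3, both under the fold threshold, as it was with library size alone or with other filters. PH-CM was 1.30-fold lower than CO-CM (-0.38, SE 0.076, FDR = 0.00272), and PH-CM against UNX gave -0.10 with an interval of -0.26 to 0.07 and an FDR of 0.269.

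Slc11a2 (DMT1, chr15:100387898-100425072, minus strand) carries ferrous iron out of the endosome into the cytosol. The values were 51.8, 51.8 and 55.2 CPM in UNX, 61.1, 68.7 and 70.2 CPM in CO-CM, and 60.0, 60.9 and 60.0 CPM in PH-CM. CO-CM libraries were the highest, PH-CM libraries lay between, and no groups overlapped. Slc11a2 rose 1.26-fold under CO-CM (log2 0.33, SE 0.057, edgeR FDR = 0.000385). PH-CM against UNX passed the FDR but not the fold threshold (1.14-fold, edgeR FDR = 0.0112), and PH-CM against CO-CM gave -0.14 with an edgeR FDR of 0.0685.

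Slc11a1 (NRAMP1, chr1:74375195-74386062, plus strand) is the transporter of the phagolysosomal membrane that withholds iron and manganese from engulfed microbes. Only mRNA was counted, and whether its protein was active in the mouse strain used was not tested. Slc11a1 mRNA rose most of the 9 genes under PH-CM, from 180, 169 and 184 CPM in UNX to 373, 371 and 393 CPM. In CO-CM it stood at 327, 328 and 332 CPM. The 3 groups were separate, with little spread inside each. Slc11a1 was 2.13-fold higher under PH-CM (log2 1.09, SE 0.046, edgeR FDR = 1.20e-08) and 1.85-fold higher under CO-CM (0.89, SE 0.046, FDR = 8.33e-08). Between the media the difference was 1.15-fold (0.21, SE 0.046, FDR = 0.00546), which is below the fold threshold. The ratio of this transporter to Slc11a2 in RPKM averaged 5.77 ± 0.19 in UNX, 8.49 ± 0.59 in CO-CM and 10.8 ± 0.41 in PH-CM (SD, n = 3), without overlap between groups. Its log2 differences were 0.90 for PH-CM against UNX, 0.56 for CO-CM against UNX and 0.35 for PH-CM against CO-CM, each with p = 0.1 in the exact permutation test, the smallest value possible, and 0.2 after adjustment over the 12 comparisons.

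Ireb2 (chr9:54863789-54912530, plus strand), or iron regulatory protein 2, is controlled mainly by degradation of its protein. Its mRNA was at 73.1, 69.2 and 70.3 CPM in UNX, 71.1, 70.3 and 65.9 CPM in CO-CM, and 79.8, 71.4 and 71.2 CPM in PH-CM. UNX overlapped with both other groups. No comparison called Ireb2 (log2 fold changes 0.07, -0.04 and 0.10, edgeR FDR from 0.182 to 0.582), and all 3 confidence intervals lay between -0.16 and 0.23. For Aco1, the other iron regulatory protein, the level was 1.14-fold higher in PH-CM and 1.19-fold higher in CO-CM than in UNX (edgeR FDR = 0.00246 and 0.000427), both under the fold threshold. Fbxl5, the ubiquitin ligase subunit that senses iron and removes Ireb2, was not called (edgeR FDR = 0.955, 0.0533 and 0.0785).

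The remaining 2 ratios combined a gene with a 5′ UTR hairpin and Tfrc with its 3′ UTR hairpins. Fth1 to Tfrc in RPKM averaged 380 in UNX, 566 in CO-CM and 486 in PH-CM, and Slc40a1 to Tfrc averaged 0.241, 0.180 and 0.206. Taken without the replicate number, no difference in these 2 ratios reached the smallest possible p of 0.1 (exact permutation p from 0.3 to 0.6). Within a replicate number, Fth1 to Tfrc was higher in CO-CM than in UNX by 0.47, 0.49 and 0.72 on the log2 scale, and Slc40a1 to Tfrc differed by -0.66, -0.38 and -0.32. All 3 pairs had the same sign in 5 of the 6 comparisons of these ratios, with p = 0.25 in a paired exact permutation test, the smallest value that 3 pairs allow, and the exception was Fth1 to Tfrc for PH-CM against CO-CM (p = 0.5). For PH-CM against CO-CM the sign of the log2 difference turned without CO-CM replicate 1 for Slc40a1 to Tfrc (-0.061 in place of 0.23) and without PH-CM replicate 1 for Fth1 to Tfrc (0.0061 in place of -0.18).

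Compared per exon length in the deposited RPKM, the order of the 9 genes was almost the same in the 3 groups. The order also depends on the exon length set for each gene, and whether the length of a single transcript keeps it was not tested. In UNX the mean RPKM was 13619 for Fth1, 1412 for Ftl1, 49.4 for Slc11a1, 38.5 for Tfrc, 24.6 for Steap3, 11.3 for Ncoa4, 8.79 for Slc40a1, 8.56 for Slc11a2 and 7.69 for Ireb2. The libraries of Slc11a1 and Tfrc overlapped in UNX, as did those of Slc40a1 and Slc11a2, and the other neighbours did not. Under CO-CM the exporter Slc40a1 moved to the last place (6.81, overlapping with Ireb2 at 7.15), and under PH-CM it was again seventh, at 9.67. In untreated cells the RPKM of Fth1 was thus 9.64 times that of Ftl1, and that of Ftl1 28.6 times that of the next gene, Slc11a1. Both ratios depend on the Ftl1 level, which may be understated, as 78.6% of its windows occur in other genes. The level of Ncoa4 may be understated too, as 39.8% of its windows recur in Gm6768.

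**Figure D4:**
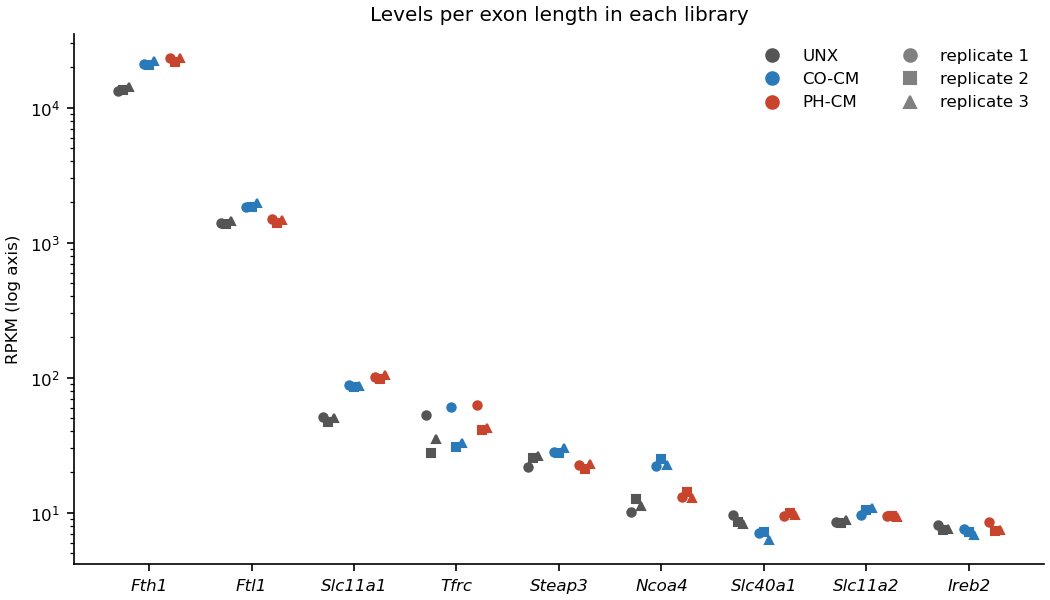
RPKM of the 9 iron genes in each library on a log axis, ordered by their mean in UNX, with color for the group and marker shape for the replicate number. The ferritin chains lie far above the transporters in all 9 libraries, and Slc40a1 changes places with its neighbours between groups.

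The genes whose log2 CPM followed each iron gene most closely over the 9 libraries are given as a description, since libraries of one group move together and the 3 group means set most of r. Fth1 was followed by Dhx40, Sfxn3 and Dusp13 (r = 0.996, 0.994 and 0.994) and Slc11a1 by Ptgfrn, B3gnt8 and Mocs1 (r = 0.998, 0.997 and 0.997). Their pattern was common, with 860 and 852 of 11949 genes at r of 0.95 or more. The pattern of Ftl1 was most like that of Tmcc3, Tfeb and Atp6v1b2 (0.986, 0.981 and 0.980), that of Ncoa4 like Abcd2, Itgb3 and Fam214a (0.990 each), and that of Slc40a1 like Plagl2, Chsy1 and Rcsd1 (0.990, 0.983 and 0.978). These were less frequent, with 53, 100 and 35 genes at that level. Steap3 was followed by Snx12, Uap1l1 and Stx4a (0.986, 0.982 and 0.982) and Slc11a2 by Gm12551, Nudt13 and Afg1l (0.986, 0.982 and 0.978). No gene reached 0.95 for Tfrc, where Runx1, Rbm26 and Scaf8 led (0.929, 0.920 and 0.918), nor for Ireb2, where Cramp1l, Map4k5 and Zrsr2 led (0.938, 0.933 and 0.931).

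Around the 9 genes, 49 further genes of iron and heme handling were listed, of which 35 were tested. Of these, 13 were called higher and 5 lower under PH-CM, 11 higher and 8 lower under CO-CM, and 9 higher and 5 lower in PH-CM than in CO-CM. Over all genes tested 63.0%, 57.0% and 27.1% were called. The share of the listed genes was below this in both comparisons with UNX, narrowly so for CO-CM, and above it in PH-CM against CO-CM. By direction, 31.3%, 28.0% and 12.2% of all genes were called higher and 31.7%, 28.9% and 15.0% lower. The listed genes were above the first shares and below the second ones in the 2 comparisons with UNX. In PH-CM against CO-CM they were above the share called higher and nearly level with the share called lower (5 of 35 beside 15.0%). With the replicate number as a block Cp was added as lower there. This is a description of few genes. Their median log2 fold changes were 0.10, 0.07 and 0.02, and both directions occurred among the called genes.

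Uptake genes moved in both directions. Trf, or transferrin, rose 4.99-fold under PH-CM (edgeR FDR = 6.11e-06) and 1.76-fold under CO-CM (FDR = 0.011), from a low level of 0.494 to 0.954 CPM in UNX to 3.33 to 4.59 CPM in PH-CM. The reductase gene Steap2 was likewise low, and rose 2.49-fold under PH-CM (edgeR FDR = 0.000705). Mcoln1, the lysosomal cation channel, rose 1.73-fold under PH-CM and 1.78-fold under CO-CM (edgeR FDR = 1.12e-07 and 1.23e-07). The zinc and iron importers Slc39a14 and Slc39a8 fell by 0.91 and 0.54 on the log2 scale under PH-CM (edgeR FDR = 0.000323 and 0.000837) and by 1.33 and 0.81 under CO-CM (FDR = 2.75e-05 and 6.48e-05). The scavenger receptor gene Lrp1 fell by 0.58 under PH-CM (edgeR FDR = 4.09e-05) and was 1.39-fold lower there than in CO-CM (FDR = 0.000656).

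Cd163, the receptor for hemoglobin bound to haptoglobin, held 39.1, 42.7 and 39.8 CPM in UNX, 10.6, 14.0 and 11.3 CPM in CO-CM, and 35.5, 37.5 and 34.2 CPM in PH-CM. Its level thus fell by 1.76 on the log2 scale under CO-CM (edgeR FDR = 1.01e-07) and 2.99-fold higher in PH-CM than in CO-CM (FDR = 1.19e-06), and PH-CM against UNX was not called (log2 -0.18, FDR = 0.0879). Hmox1, the heme oxygenase that frees iron from heme, had the same order of groups, with 969, 864 and 922 CPM in UNX, 469, 537 and 573 CPM in CO-CM, and 728, 795 and 793 CPM in PH-CM. Its level fell by 0.80 on the log2 scale under CO-CM (edgeR FDR = 6.47e-06) and was 1.47-fold higher in PH-CM than in CO-CM (FDR = 0.000311), whereas PH-CM against UNX (-0.25, FDR = 0.0126) was under the fold threshold. The heme exporter Flvcr1 rose 2.04-fold under PH-CM and 2.19-fold under CO-CM (edgeR FDR = 1.12e-07 and 8.92e-08), and Bach1, the heme-sensing repressor, 1.79-fold and 1.68-fold (FDR = 3.72e-07 and 1.24e-06). Slc48a1, which moves heme out of the phagolysosome, was not called (edgeR FDR from 0.058 to 0.518), and Abcg2 was 1.37-fold lower in PH-CM than in CO-CM (FDR = 0.0333).

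Of the regulators, Hfe, a partner of the transferrin receptors, averaged 28.5 CPM in UNX, 41.4 in CO-CM and 68.7 in PH-CM, a rise of 2.41-fold under PH-CM and 1.45-fold under CO-CM (edgeR FDR = 4.99e-08 and 3.66e-05). The hypoxia-inducible factors differed in opposite directions between the media. Hif1a was 1.91-fold higher in PH-CM than in UNX (edgeR FDR = 4.97e-06) and 2.30-fold higher than in CO-CM (FDR = 5.34e-06), whereas Epas1 was 1.51-fold higher in CO-CM than in UNX (FDR = 0.000424) and 1.74-fold lower in PH-CM than in CO-CM (FDR = 0.000189). In the mitochondrial list all 12 genes were tested, and 6 were called higher and 2 lower under PH-CM, 5 and 3 under CO-CM, beside the 63.0% and 57.0% of all genes called. Alad, of heme synthesis, was 2.17-fold lower under PH-CM and 1.85-fold lower under CO-CM (edgeR FDR = 2.30e-07 and 1.66e-06), and Cpox, of the same pathway, fell by 0.39 on the log2 scale under PH-CM (FDR = 0.000622). By contrast, Urod, Ppox and Fech of this pathway were called higher under both media. They rose 1.26, 1.37 and 1.27-fold under PH-CM and 1.32, 1.34 and 1.28-fold under CO-CM. Uros was called higher under CO-CM (1.28-fold, edgeR FDR = 0.0053), and Alas1 was not called. Between the media, the mitochondrial iron importer Slc25a28 was 1.77-fold higher in PH-CM (edgeR FDR = 2.21e-05). The heme synthesis genes Uros and Cpox were lower in PH-CM than in CO-CM, with log2 fold changes of -0.27 (edgeR FDR = 0.0396) and -0.26 (FDR = 0.0155).

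**Figure D5:**
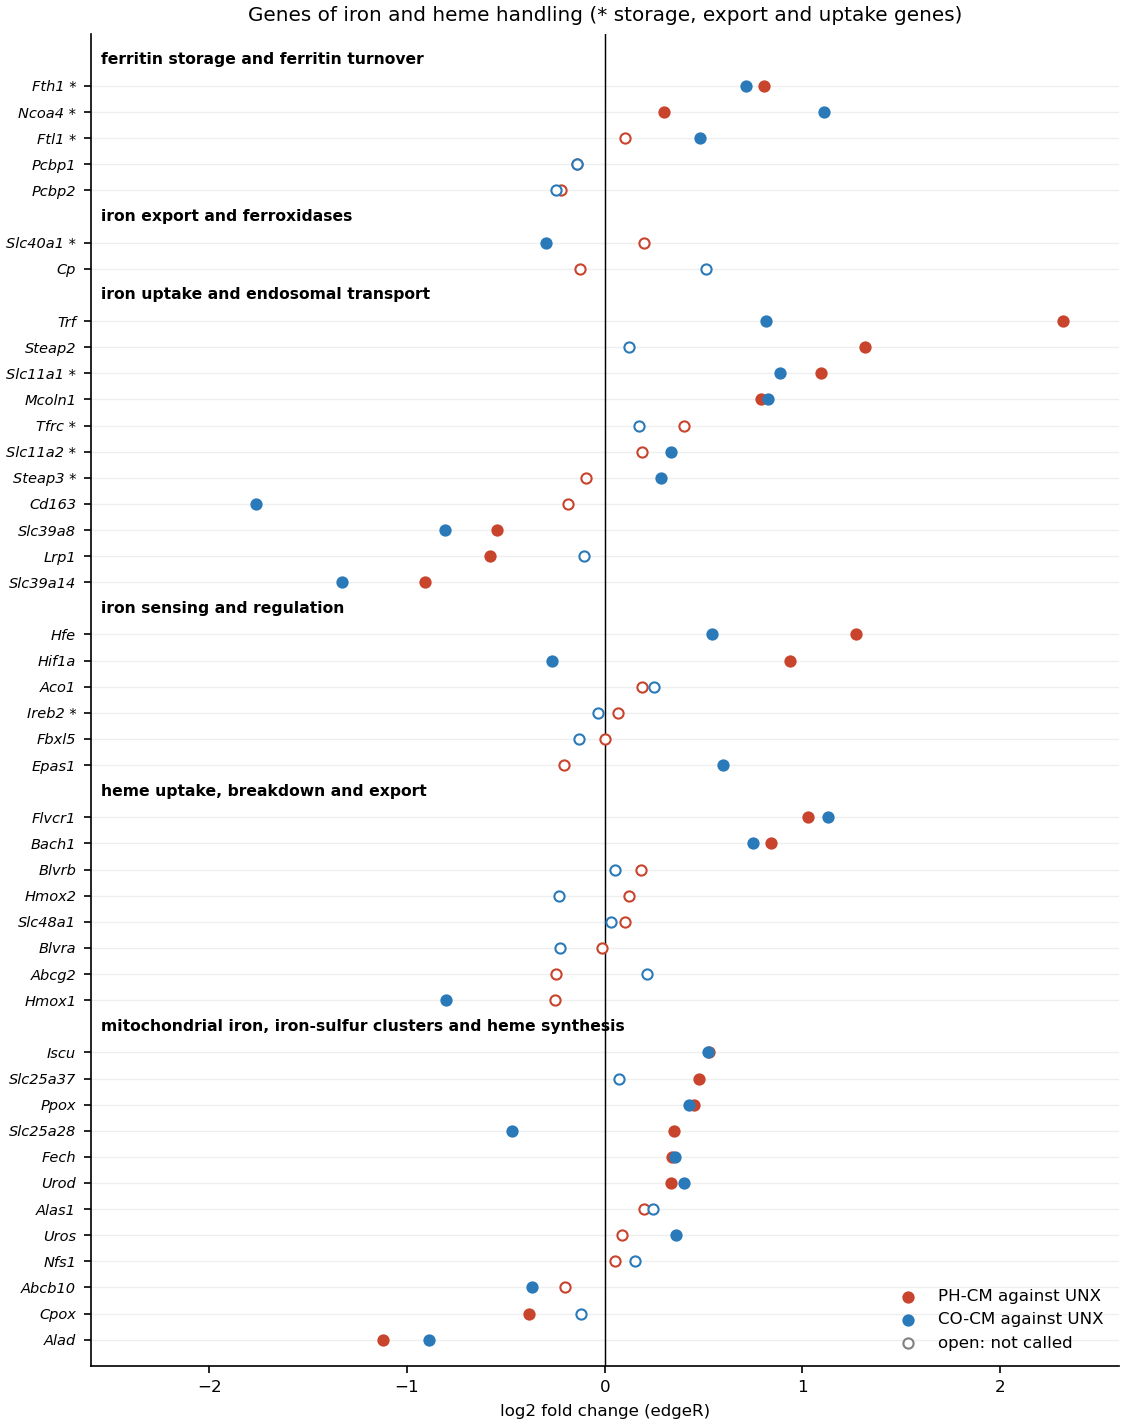
Log2 fold change in edgeR of the 44 tested genes of iron and heme handling for PH-CM and CO-CM, each against the same 3 UNX libraries, grouped by role, with open points for genes not called and an asterisk for the 9 genes described above. Both directions occur in most groups, with Trf highest and Alad lowest under PH-CM and Cd163 lowest under CO-CM.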

How the data were processed

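RNA-Seq of 9 BMDM libraries was used, grouped by the treatment and replicate number in their labels. The authors aligned reads to GRCm38 with STAR and deposited raw counts per gene from featureCounts (1.6.2, per the labels' processing notes) and RPKM values, which are these counts per exon length and library size. The options they list name none for strand, read pairs or reads with several positions. By default counting is then unstranded, takes each mate on its own and leaves out reads with several positions. Between 81.4% and 83.8% of counts under 20 were even, as when both mates are counted. The authors' own comparison tables (fold changes, p-values) were not used. The total of per-sample columns left unused was 0.

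One quasi-likelihood fit of all 9 libraries with TMM factors was made in edgeR 4.0.16 (R 4.3.3), with DESeq2 1.42.0 as an alternative. RPKM served to compare genes and for ratios, and ratios were tested by exact permutation on the log2 scale. Of 53465 identifiers, 53274 matched reference names. No pair of libraries of a group agreed within sampling noise (chi-square per gene at least 8.91). Counting error is small at this depth, and intervals reflect the spread between cultures, which nothing in the labels says are separate animals. Replicate numbers were taken to pair the libraries, since deviations from group means correlated in all 9 same-numbered pairs (r from 0.276 to 0.484) and less in the 18 others (-0.376 to 0.0423). The genes and lists were chosen with earlier results of these data known, and some listed genes are not reported here. Named are the 9 genes, fixed companions (Hmox1, Aco1, Hamp, Cp, Heph, Fbxl5, Hfe, Slc48a1, Cd163), up to 5 called genes per direction and comparison from the lists, and the 3 genes most like each member. Alas1, Urod, Ppox and Fech were named in addition, after seeing the data, as the other heme synthesis genes of the lists. Alternatives were other tests, scalings, filters, fold thresholds and gene rows, a fit of the 2 groups compared, the replicate block, each library left out, and, chosen after seeing the data, counts divided by 2 and ratios paired by replicate number.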

Additional observations from a re-analysis of the deposited data

How the results depend on the processing

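For the 12 differences in log2 ratio and the counts of called genes in 3 comparisons, 231 values under an alternative kept their sign and moved by less than 1 SD between replicates (ratios) or 1.5 times (counts), 7 moved further and 2 changed sign. Some settings could not move a ratio, since a ratio of CPM and the mean difference within a replicate number return the main value by construction. Summed rows alter only Ftl1. Ratios with Tfrc had an SD of 0.32 to 0.56 on the log2 scale, so moves below that size were counted as small. With no fold threshold the 9 iron genes called for PH-CM against UNX rose from 3 to 5. A threshold of 2 left 1, 1 and 0 of the 9 genes for PH-CM against UNX, CO-CM against UNX and PH-CM against CO-CM, and 6, 4 and 4 genes of the iron lists in place of 21, 26 and 18. Leaving out 1 library at a time gave 2 to 3, 5 to 7 and 4 called genes of the 9. It moved the log2 ratio of Slc40a1 to Tfrc for PH-CM against CO-CM between -0.061 (without CO-CM replicate 1) and 0.45, and that of Fth1 to Tfrc between -0.50 and 0.0061 (without PH-CM replicate 1). Against UNX the first ratio ranged from -0.41 to -0.016 for PH-CM and from -0.67 to -0.16 for CO-CM, and the second from 0.11 to 0.59 and from 0.29 to 0.88. Tfrc for CO-CM against UNX lay between -0.19 (without CO-CM replicate 1) and 0.43, and was -0.03 without UNX replicate 2. Tfrc for PH-CM against UNX was called without UNX replicate 1 (0.67, edgeR FDR = 0.0477). Ireb2 for CO-CM against UNX was 0.030 with upper-quartile factors. Ncoa4 for PH-CM against UNX and Steap3 for CO-CM against UNX fell below the fold of 1.2 with library size alone, with no filter and with filterByExpr, and Slc40a1 for CO-CM against UNX did so with upper-quartile factors. The cause of these changes was not tested. The replicate block changed the call of Tfrc in 2 comparisons and of no other of the 9 genes, and over all genes it called 7714, 7037 and 3632 in place of 7534, 6806 and 3244.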
